A study of Mus musculus with 9 samples.

Results

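NF-kB is a family of transcription factors that carries the signal from the lipopolysaccharide (LPS) receptor to inflammatory genes, and the genes examined here encode its 5 subunits and 5 inhibitors or modulators that NF-kB itself induces. The 10 genes were taken by symbol from the deposited table of 52381 genes, each matched 1 row, and all 10 passed the filter on low values (FPKM of 1 or more in 4 or more libraries). FPKM is a fragment count scaled by gene length and library size, so levels of different genes can be compared per length. The table holds 9 lungs, each from another mouse, injured with LPS, which comes from the outer membrane of bacteria, as a model of acute lung injury (ALI). The 5 TMAO lungs came from injured mice that also received trimethylamine N-oxide (TMAO), a metabolite derived from gut bacteria, and the 4 LPS-ALI lungs came from injured mice without it. LPS is therefore shared by both groups, and lungs without LPS are not analysed here, so neither group shows how far a gene was induced. The sources used here do not give strain, sex, age, doses, routes or sampling time. RNA of lung tissue was sequenced in bulk, and fewer cells of a type cannot be told apart from less RNA per cell.

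In resting cells, NF-kB dimers are held in the cytoplasm by inhibitor proteins, the IkB family. LPS or cytokines activate the IKK kinases, the inhibitors are degraded, and the dimers enter the nucleus, where they also switch on genes of their own inhibitors, which closes a negative feedback loop. In the injured lung this pathway acts in epithelium, endothelium and leukocytes alike.

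Promoter sequences show which of these genes carry the letters that NF-kB recognises. RefSeq windows on GRCm38.p6, from 250 bases before to 50 after a gene's start, were found for 7 of the 10 genes, and Nfkb1, Relb and Nfkbiz had none. They were searched on both strands for the kappaB consensus of 10 letters, and overlapping matches were joined. Counted by gene, the consensus was present in at least 1 window of 6 of these 7 genes, against 9.55% of all 27025 genes with a window. Counted by window, it was in 8 of their 10 windows, some of which overlap, against 8.46% of all 32851 windows. Nfkbia had it at -29 from the gene's start, Nfkbie at -106, Rel at -92 and Bcl3 at 3. Tnfaip3 had it at -125 and -12 in its upstream window and not in its downstream one, and Nfkb2 had it at -39 and -11 in the first of its 3 windows. The Rela window held no match. Such a match is a description of letters and not of a bound site. The inhibitors are members because NF-kB induces them, so their share of matches is not independent of that choice. The stretches below run 5′ to 3′ on the gene's strand, with the consensus in capitals. Nfkbia (chr12:55492648-55492897, minus strand) and Rela (chr19:5637291-5637540, plus strand) are shown over the full 250 bases before the start, as the main inducible inhibitor and the subunit it holds. The others show the letters around a match: Nfkb2 (chr19:46304677-46304736, plus strand), Rel (chr11:23771025-23771084, minus strand), Nfkbie (chr17:45555570-45555629, plus strand), Tnfaip3 (chr10:19015411-19015470, minus strand) and Bcl3 (chr7:19822731-19822785, minus strand).
Nfkbia: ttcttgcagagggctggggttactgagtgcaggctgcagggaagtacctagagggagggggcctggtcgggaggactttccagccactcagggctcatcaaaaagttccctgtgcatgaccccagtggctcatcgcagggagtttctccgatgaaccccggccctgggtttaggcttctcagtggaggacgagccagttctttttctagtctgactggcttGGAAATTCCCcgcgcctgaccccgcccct
Rela: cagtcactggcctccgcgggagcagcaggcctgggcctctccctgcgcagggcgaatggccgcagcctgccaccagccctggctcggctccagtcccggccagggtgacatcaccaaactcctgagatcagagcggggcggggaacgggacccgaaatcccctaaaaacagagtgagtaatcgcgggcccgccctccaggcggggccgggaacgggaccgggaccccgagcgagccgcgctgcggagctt
Nfkb2: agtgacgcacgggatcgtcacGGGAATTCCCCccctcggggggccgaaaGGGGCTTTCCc
Rel: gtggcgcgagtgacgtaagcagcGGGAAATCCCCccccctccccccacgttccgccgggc
Nfkbie: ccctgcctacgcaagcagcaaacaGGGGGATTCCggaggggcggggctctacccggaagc
Tnfaip3: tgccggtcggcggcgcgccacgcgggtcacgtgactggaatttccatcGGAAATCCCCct
Bcl3: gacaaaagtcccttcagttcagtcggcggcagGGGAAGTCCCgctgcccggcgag

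Libraries differed in ways that touch every value. The spacing of low FPKM values gave relative depths of 0.381 to 0.682 in TMAO lungs and 0.495 to 1 in LPS-ALI lungs, and read totals are not given. TMAO replicate 5 was the shallowest, with 8846 genes at 1 FPKM or more, where the other 8 libraries had 11158 to 12239. It also had the largest share of FPKM in mitochondrial genes, 52.2%, against 33.4% to 49.3%. LPS-ALI replicate 4 had a summed FPKM of 1061 for 6 alveolar type 2 markers, against 4741 to 10339 in TMAO lungs and 7457 to 13850 in the other LPS-ALI lungs, so the tissue label is carried by these markers least in that library. Summed T and NK cell markers were 11.3 to 20.5 in TMAO and 29.2 to 86.3 in LPS-ALI lungs, with 3 of 8 markers listed at 0 in at least 1 library. Summed platelet markers were 18.7 to 27.4 and 31.4 to 76.6, with 3 of 7 listed at 0 in at least 1 library. As mean log2(FPKM + 1) minus the library's median gene, both lists overlapped between groups. T and NK cell markers were at -2.14 to -0.74 in TMAO and -1.64 to -0.41 in LPS-ALI lungs. Platelet markers were at -1.95 to -0.62 and -1.24 to -0.64. In both lists TMAO replicate 5 was the highest TMAO lung on that scale, which subtracts a median gene that was lowest in that library. The platelet overlap rests on it: TMAO replicates 1 to 4 were at -1.95 to -1.52, under the LPS-ALI range. T and NK cell markers overlapped without it too, at -1.6 in TMAO replicate 1 and -1.64 in LPS-ALI replicate 1. The neutrophil sums overlapped, at 7681 to 14709 in TMAO and 7502 to 20624 in LPS-ALI lungs, as did those of monocytes and interstitial macrophages, at 64.9 to 142 and 127 to 141. The sums of alveolar macrophages (161 to 352 and 283 to 544), endothelium (252 to 1397 and 633 to 932), fibroblasts (33.1 to 250 and 111 to 155) and B cells (4.22 to 10.8 and 6.99 to 13.3, with 3 of 5 markers listed at 0 in at least 1 library) also overlapped between TMAO and LPS-ALI lungs. No marker was listed at 0 in every library. The part of any of these in the results below was not tested. Codes in the sample descriptions begin with X for LPS-ALI replicates 3 and 4 and with B for the other 7 libraries, and what the letters mean is not given. The median tested gene was 0.17 log2 units lower in TMAO lungs, and 0.05 higher with TMAO replicate 5 left out. In single libraries the median gene was at 1.74 log2 units in TMAO replicate 5. It was at 2.74 to 3.35 in the other TMAO lungs and 2.77 to 3.04 in LPS-ALI lungs. Differences are therefore given after each library was centred on its median gene, and called relative, unless they are marked as unshifted. The centring was added after the data were seen.

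None of the 10 genes differed between TMAO and LPS-ALI lungs at an adjusted p of 0.05 by limma, the same as all 11817 genes tested, of which 0.00% passed. The relative difference was below 0 for all 10, against 49.3% of all genes tested, and so was the unshifted one, against 72.1%. The median relative difference over the 10 was -0.28, against 0.01 over all genes. That count rests on small values: with single libraries left out in turn, 4 genes crossed 0 at least once. Nfkb1 reached 0.06 (without TMAO replicate 5), Rel 0.07 (without TMAO replicate 2), Nfkbie 0.17 (without LPS-ALI replicate 4) and Bcl3 0.08 (without LPS-ALI replicate 1). The other 6 genes stayed below 0 in each of these. Bcl3 also turned to 0.02 and 0.01 unshifted under median-of-ratios and quantile scaling. At an unadjusted p under 0.05 limma gave 0 of the 10 genes unshifted, where 2.93% of all genes were lower and 0.423% higher, and 1 relative, Nfkbiz, where 3.71% were lower and 3.50% higher. Subunits and inhibitors had nearly the same median relative difference, -0.26 for the 5 subunits and -0.29 for the 5 inhibitors. This nearness rests on TMAO replicate 5, without which the medians were -0.10 for the subunits and -0.24 for the inhibitors.

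**Figure D1:**
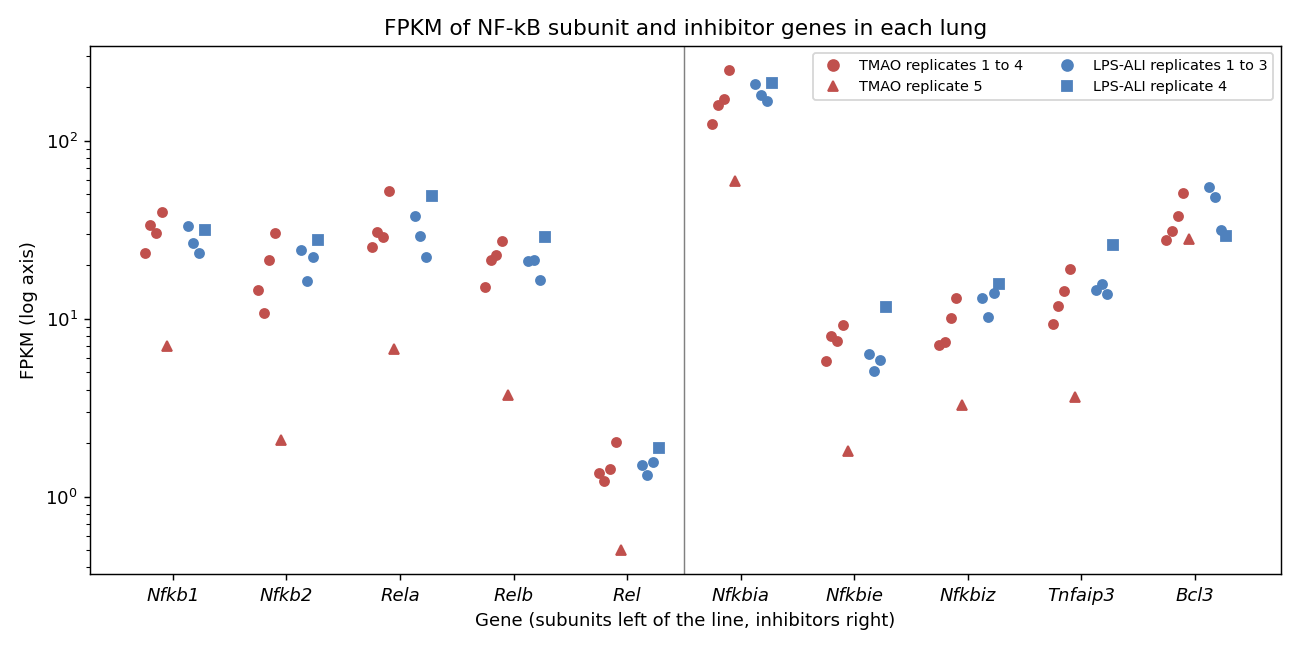
FPKM of each of the 10 genes (log axis), with TMAO lungs in red left of LPS-ALI lungs in blue and 1 point per lung. TMAO replicate 5 (triangle) is the lowest lung for 9 of the 10 genes and stands among the others for Bcl3.

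In level, the 10 genes spanned a wide range. Nfkbia was by far the most abundant, with a mean of 171 FPKM over the 9 lungs, and was above Bcl3 in all 9. Bcl3 (37.7), Rela (31.3) and Nfkb1 (27.7) followed, and this order did not hold in every lung, since Bcl3 exceeded Rela in 7 of 9 and Rela exceeded Nfkb1 in 5 of 9. Relb (19.9) and Nfkb2 (18.9) were next, with Relb the higher in 6 of 9 lungs. Tnfaip3 (14.2) exceeded Nfkbiz (10.4) in 8 of 9 lungs, and Nfkbiz exceeded Nfkbie (6.79) in 8 of 9. Rel had the lowest level, 1.42, below Nfkbie in all 9. Among the genes tested, Nfkbia stood at the 96.8th percentile of mean FPKM and Rel at the 8.94th.

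Among the subunits, Rela encodes the main transactivating subunit of the canonical pathway. Its FPKM was 25.16, 30.69, 28.91, 52.22 and 6.77 in TMAO replicates 1 to 5, against 37.97, 29.04, 22.20 and 49.07 in LPS-ALI replicates 1 to 4. The groups overlapped, with the highest and the lowest value both in TMAO lungs. The relative log2 difference was -0.26 ± 0.26 (SE), with a 95% confidence interval of -0.84 to 0.32 (limma, adjusted p = 0.868). It was -0.09 without TMAO replicate 5, -0.10 without LPS-ALI replicate 4 and 0.08 without both. Nfkb1 encodes the precursor of the DNA-binding partner of Rela. It had 23.49, 33.78, 30.31, 39.71 and 6.99 FPKM in TMAO lungs and 33.17, 26.57, 23.49 and 31.53 in LPS-ALI lungs. TMAO replicate 5 alone lay outside the range of the rest on the low side, and TMAO replicate 4 was the highest. The difference was -0.09 ± 0.21, with an interval of -0.55 to 0.36 (limma adjusted p = 0.956).

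Nfkb2 encodes the precursor of the subunit that partners RelB in the noncanonical pathway. It had 14.50, 10.84, 21.42, 30.16 and 2.08 FPKM in TMAO lungs and 24.41, 16.22, 22.33 and 27.88 in LPS-ALI lungs. Replicates 1, 2 and 5 of the TMAO group were under the LPS-ALI range and replicate 4 was above it. It had the lowest relative difference of the 10 genes, -0.65 ± 0.35, with an interval of -1.43 to 0.13 (limma adjusted p = 0.747, unadjusted exact permutation p = 0.143). Without TMAO replicate 5 that difference was -0.38, with an interval of -0.97 to 0.22. In the annotation, 18.1% of the exon bases of Nfkb2 overlap genes on the other strand, and since the strand setting is not given, their reads cannot be told apart.

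Relb, whose product pairs with that of Nfkb2, had 15.03, 21.43, 22.92, 27.41 and 3.75 FPKM in TMAO and 21.24, 21.49, 16.61 and 28.89 in LPS-ALI lungs. Again TMAO replicate 5 stood far below the rest and the other values overlapped. The difference was -0.30 ± 0.25 (limma adjusted p = 0.828). It was -0.10 without TMAO replicate 5, -0.18 without LPS-ALI replicate 4 and 0.01 without both. Rel encodes c-Rel, a subunit prominent in lymphocytes. It had 1.36, 1.22, 1.43, 2.03 and 0.50 FPKM in TMAO and 1.5, 1.33, 1.56 and 1.88 in LPS-ALI lungs. These levels are close to the pseudocount of 1, which compresses the log2 values, and the difference was -0.01 ± 0.20 (limma adjusted p = 0.994).

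**Figure D2:**
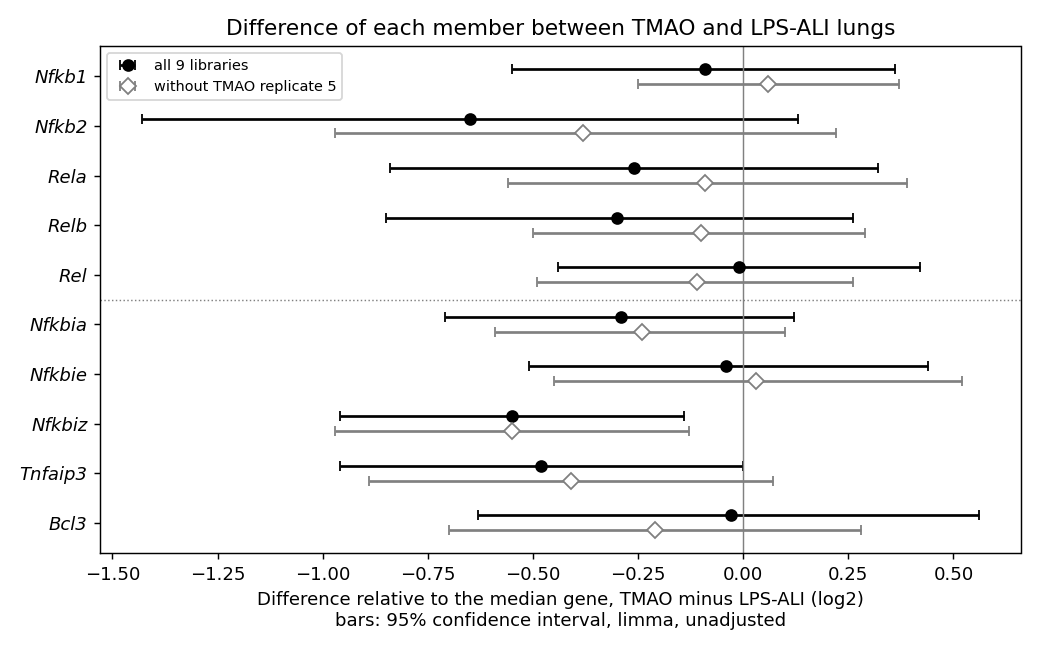
Log2 difference of each gene relative to the median gene, TMAO minus LPS-ALI, with 95% confidence intervals from limma (unadjusted), over all 9 libraries (black) and without TMAO replicate 5 (grey). The interval of Nfkbiz, -0.96 to -0.14 over all 9 libraries, lies below 0 in both fits. Those of the 5 subunits and of the inhibitors Nfkbia, Nfkbie and Bcl3 span 0 in both. That of Tnfaip3 reaches 0.00 over all 9 libraries and spans 0 without TMAO replicate 5.

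Among the inhibitors, Nfkbia encodes IkB alpha, which traps Rela dimers in the cytoplasm and is resynthesised soon after they are released. Its FPKM was 123.79, 158.71, 171.67, 250.37 and 59.67 in TMAO lungs, against 209.94, 181.73, 168.20 and 210.92 in LPS-ALI lungs. In FPKM the groups overlapped, with the highest value in TMAO replicate 4. Relative to the median gene, Nfkbia was 4.22, 4.3, 4.58, 4.63 and 4.18 log2 units above it in TMAO lungs and 4.68, 4.64, 4.63 and 4.75 in LPS-ALI lungs. On that scale the whole TMAO group was under the LPS-ALI range, by the thinnest of margins, since TMAO replicate 4 and LPS-ALI replicate 3 are equal to 2 decimals. This was the 1 gene of the 10 without overlap, against 1.70% of all genes tested that did not overlap with TMAO lower. The relative difference was -0.29 ± 0.19, with an interval of -0.71 to 0.12 (limma adjusted p = 0.778, unadjusted exact permutation p = 0.0476). With each library left out in turn it was -0.36 to -0.24, and with only the B-coded LPS-ALI libraries it was -0.28 (exact permutation p = 0.190, 5 against 2 libraries).

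Nfkbiz encodes IkB zeta, a nuclear IkB protein that is not a cytoplasmic inhibitor but a cofactor for a later set of NF-kB targets, Il6 among them. It had 7.09, 7.40, 10.07, 13.05 and 3.26 FPKM in TMAO lungs and 13.03, 10.28, 14.01 and 15.66 in LPS-ALI lungs. In FPKM, 4 of the 5 TMAO values were under the LPS-ALI range, and TMAO replicate 4 was within it. The relative difference was -0.55 ± 0.18 (limma unadjusted p = 0.0127, adjusted p = 0.605, unadjusted exact permutation p = 0.0238), and -0.73 ± 0.38 unshifted (limma adjusted p = 0.998). It was the same -0.55 without TMAO replicate 5 and -0.34 without the X-coded LPS-ALI libraries (exact permutation p = 0.190, 5 against 2 libraries). LPS-ALI replicates 3 and 4, which carry that code, had the highest Nfkbiz levels relative to the median gene, 1.14 and 1.08.

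Tnfaip3 encodes a ubiquitin-editing enzyme that shuts down signalling upstream of IKK. Its FPKM was 9.32, 11.81, 14.27, 19.13 and 3.63 in TMAO lungs and 14.44, 15.59, 13.77 and 25.95 in LPS-ALI lungs. LPS-ALI replicate 4 stood above all others, and TMAO replicates 1, 2 and 5 were under the LPS-ALI range. The relative difference was -0.48 ± 0.22, with an interval of -0.96 to 0.00 (limma adjusted p = 0.691, unadjusted exact permutation p = 0.0556). Without LPS-ALI replicate 4 it was -0.30 (exact permutation p = 0.125).

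Nfkbie encodes IkB epsilon, a cytoplasmic inhibitor with a slower feedback. It had 5.77, 7.95, 7.47, 9.18 and 1.81 FPKM in TMAO and 6.34, 5.07, 5.89 and 11.61 in LPS-ALI lungs. TMAO replicates 2, 3 and 4 were above LPS-ALI replicates 1 to 3, while LPS-ALI replicate 4 was the highest of all. The relative difference was -0.04 ± 0.22, with an interval of -0.51 to 0.44 (limma adjusted p = 0.987), and 0.17 without LPS-ALI replicate 4.

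Bcl3 encodes another nuclear IkB protein, which binds dimers that lack a transactivation domain. It had 27.82, 31.31, 37.87, 50.72 and 27.90 FPKM in TMAO and 54.89, 48.17, 31.72 and 29.27 in LPS-ALI lungs. The 2 B-coded LPS-ALI lungs were higher than the 2 X-coded ones, and the TMAO range covered the gap between them. The relative difference was -0.03 ± 0.27, with an interval of -0.63 to 0.56 (limma adjusted p = 0.991), and -0.36 without the X-coded libraries (exact permutation p = 0.381). Bcl3 departed from the other members in single libraries. In TMAO replicate 5, where the other 9 genes had their lowest FPKM, the mean of the other TMAO lungs was 1.32 times the value of that library for Bcl3, but 2.88 (Nfkbiz) to 9.25 (Nfkb2) times for the others. In LPS-ALI replicate 4, the highest lung for 6 of the 10 genes relative to the median gene, Bcl3 was the lowest of all 9 lungs, at 1.94. An antisense gene overlaps 6.51% of the exon bases of Bcl3.

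**Figure D3:**
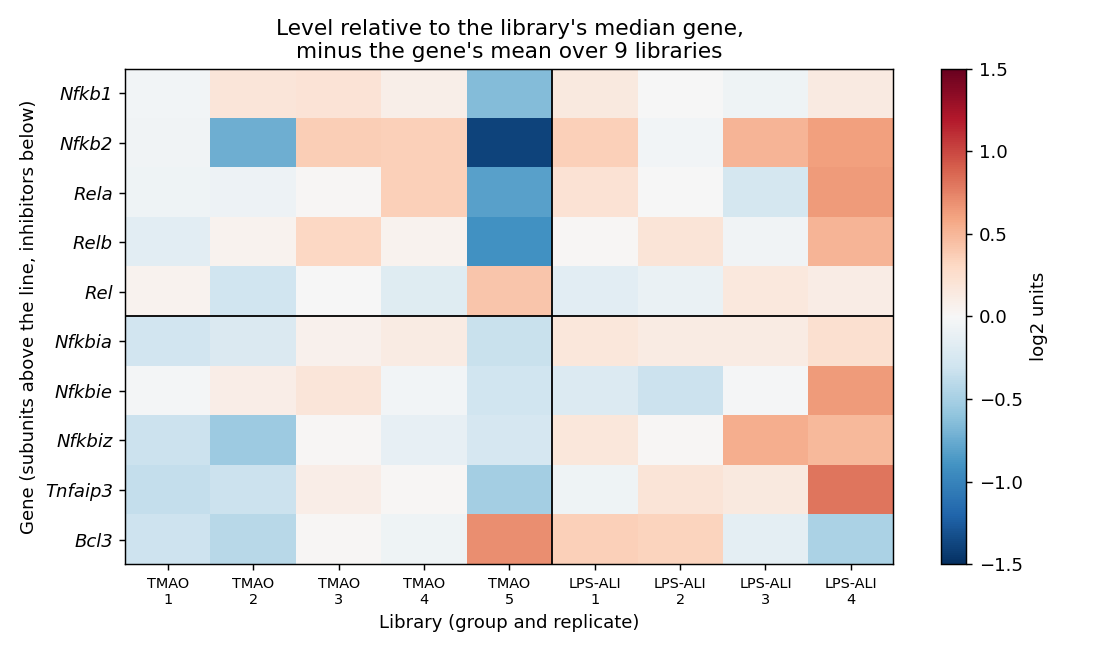
Level of each gene relative to its library's median gene, minus the gene's mean over the 9 libraries (colour, log2 units), with TMAO libraries left of LPS-ALI libraries. In TMAO replicate 5, 6 genes are at their lowest, the subunits Nfkb1, Nfkb2, Rela and Relb and the inhibitors Nfkbia and Tnfaip3. The subunit Rel and the inhibitor Bcl3 are at their highest there on this scale. In FPKM, Rel is at its lowest in that library, 0.50, where the pseudocount of 1 compresses the log2 value. LPS-ALI replicate 4 holds the lowest value of Bcl3.

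The comparison of inhibitors with subunits was made within each library, where scaling between libraries cancels apart from the pseudocount. The mean log2(FPKM + 1) of the 5 inhibitors exceeded that of the 5 subunits in all 9 lungs. The excess was 0.49, 0.59, 0.60, 0.54 and 1.23 in TMAO replicates 1 to 5, and 0.66, 0.75, 0.76 and 0.63 in LPS-ALI replicates 1 to 4. TMAO replicates 1 to 4 were under the LPS-ALI range and TMAO replicate 5 was above it. Group means were 0.69 ± 0.31 (SD, n = 5) in TMAO and 0.70 ± 0.07 (SD, n = 4) in LPS-ALI lungs, a difference of -0.02. Without TMAO replicate 5 the TMAO mean was 0.55 ± 0.05 and the difference -0.15. As a score over chosen genes it was not given a p. The inhibitor mean alone, relative to the median gene, was 1.58 ± 0.15 in TMAO and 1.86 ± 0.12 in LPS-ALI lungs, while the subunit mean was 0.90 ± 0.34 and 1.16 ± 0.17. TMAO replicate 5 was inside the range of the other TMAO lungs for the inhibitors, at 1.57, and lowest of all for the subunits, at 0.34. That place rests on Bcl3: the mean of the other 4 inhibitors was lowest of all 9 lungs in TMAO replicate 5 too, at 1.19, against 1.28 to 1.63 in the other TMAO lungs and 1.54 to 2.07 in LPS-ALI lungs.

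The departure of TMAO replicate 5 was present with and without Bcl3. Bcl3 exceeded the subunit mean by 1.15 to 1.24 log2 units in TMAO replicates 1 to 4 and by 2.77 in TMAO replicate 5, against 0.53 to 1.72 in LPS-ALI lungs. With Bcl3 set aside, the other 4 inhibitors exceeded the subunits by 0.32 to 0.45 in TMAO replicates 1 to 4 and by 0.85 in replicate 5, against 0.42 to 0.66 in LPS-ALI lungs. As a plain FPKM ratio, Nfkbia to Rela was 4.92, 5.17, 5.94, 4.79 and 8.81 in TMAO and 5.53, 6.26, 7.58 and 4.3 in LPS-ALI lungs. The groups overlapped, at 5.93 ± 1.67 and 5.92 ± 1.37 (SD). The ratio of Nfkb2 to Nfkb1, the precursors of the noncanonical and canonical pathways, was 0.540 ± 0.217 in TMAO and 0.795 ± 0.152 in LPS-ALI lungs, and the groups overlapped. It was 0.617, 0.321, 0.707, 0.760 and 0.298 in TMAO replicates 1 to 5 and 0.736, 0.610, 0.951 and 0.884 in LPS-ALI replicates 1 to 4, so TMAO replicates 2 and 5 were under the LPS-ALI range and the other 3 within it.

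**Figure D4:**
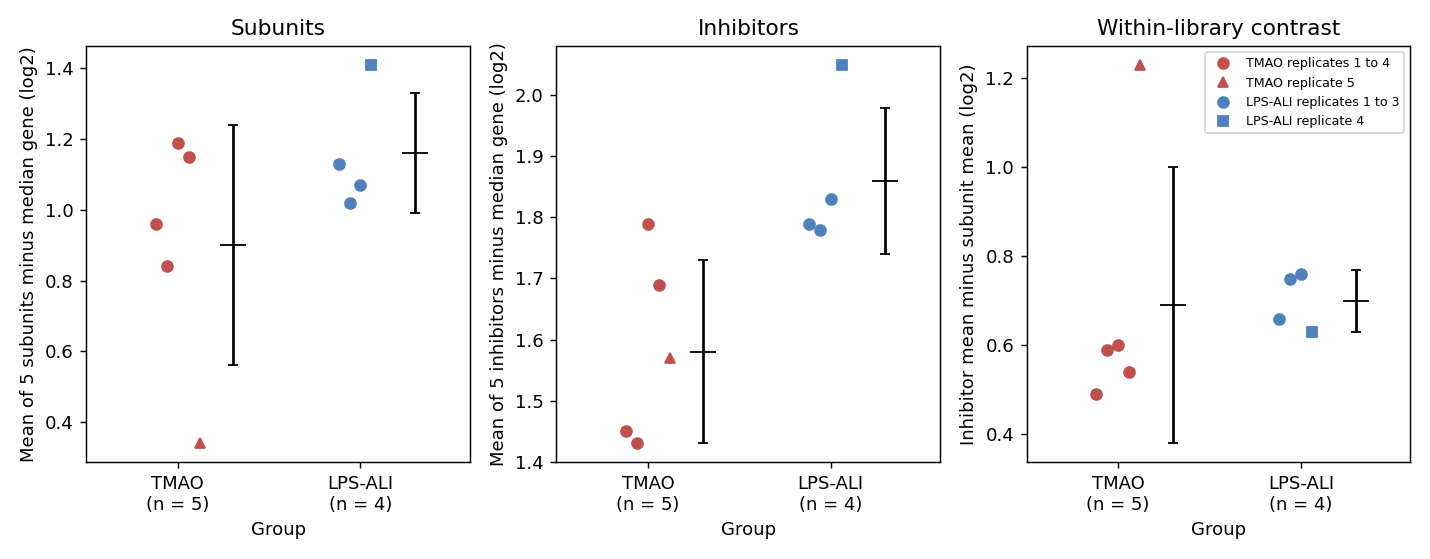
Mean log2(FPKM + 1) of the 5 subunits (left) and the 5 inhibitors (middle) relative to the median gene, and inhibitors minus subunits (right), with 1 point per lung and bars of mean ± SD. TMAO replicates 1 to 4 lie between 0.49 and 0.60 on the right panel, below the LPS-ALI lungs at 0.63 to 0.76, and TMAO replicate 5 is at 1.23.

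The rest of the pathway was read from 4 lists, and 0 genes of any list passed the adjusted threshold. Of 10 genes of the IKK complex and related kinases, 8 lay below the median gene's difference, with a median relative difference of -0.12. Ikbke, an IKK-related kinase that is itself induced by NF-kB, had 9.26 ± 5.34 FPKM in TMAO and 15.4 ± 3.23 in LPS-ALI lungs (SD), with 4 of 5 TMAO values under the LPS-ALI range and a relative difference of -0.69. Map3k14, the kinase of the noncanonical pathway, had 0.894 ± 0.370 and 1.32 ± 0.525 FPKM. Ikbkb, the kinase that marks IkB alpha for degradation, had 22.0 ± 8.72 and 29.5 ± 14.3. Of 15 receptor-proximal genes 11 were below 0, with a median of -0.16. Cd14, the LPS coreceptor, had 57.4 ± 17.3 FPKM in TMAO and 93.2 ± 39.7 in LPS-ALI lungs, the adaptor gene Myd88 had 27.8 ± 11.3 and 35.8 ± 7.91, and Ly96, for the protein that binds LPS on the receptor, had 10.1 ± 2.81 and 14 ± 5.87.

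Other negative regulators, 13 genes, were split, with 7 below and 6 above 0. Tnip1, whose product works with the Tnfaip3 enzyme, had 45.2 ± 26.9 FPKM in TMAO and 78.9 ± 43.7 in LPS-ALI lungs, where LPS-ALI replicate 4 had 143.9. Nfkbib, the gene of IkB beta, had 15.7 ± 8.10 and 27.2 ± 15.9, again with the highest value, 50.97, in LPS-ALI replicate 4, and Tax1bp1, an adaptor of the same enzyme, had 52.8 ± 22.4 and 71.8 ± 31.0. Of 24 known induced targets 19 were below 0 and 5 above, with a median of -0.48, the lowest of the 4 lists and below that of the subunits and inhibitors. At an unadjusted limma p under 0.05, 5 of the 24 were lower and 0 higher in the unshifted fit, against 2.93% and 0.423% of all genes tested. In the relative fit 6 were lower and 0 higher, against 3.71% and 3.50% of all genes. The other lists had 0 genes at that p in the unshifted fit. In the relative fit they had only Ikbke, which was lower (limma unadjusted p = 0.0117). Among the 5 targets of the unshifted fit was Csf3, a granulocyte growth factor, with 0.584 ± 0.581 FPKM in TMAO and 5.71 ± 8.44 in LPS-ALI lungs. It was not among the 6 of the relative fit (limma unadjusted p = 0.0786). Csf3 was listed at 0 in TMAO replicate 2 and had 18.34 in LPS-ALI replicate 4. Il6, an acute-phase cytokine and a known IkB zeta target, had 0.24, 0.72, 1.78, 0.57 and 0 FPKM in TMAO and 1.30, 3.76, 4.80 and 7.23 in LPS-ALI lungs, with a relative difference of -1.44 (limma adjusted p = 0.998, unshifted). The chemokine gene Ccl20 had 0.37, 0.60, 0.92, 2.39 and 0.63 FPKM in TMAO and 1.97, 4.10, 2.15 and 4.14 in LPS-ALI lungs, with a relative difference of -0.90. For Il6 and Ccl20 alike, 1 TMAO lung reached into the LPS-ALI range. Not all targets lay low: Tnf and Il1b, whose cytokines also activate NF-kB, had relative differences of 0.34 and 0.39. These lists were written with earlier results of these data known, and the direction of the cytokine genes was among those results.

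**Figure D5:**
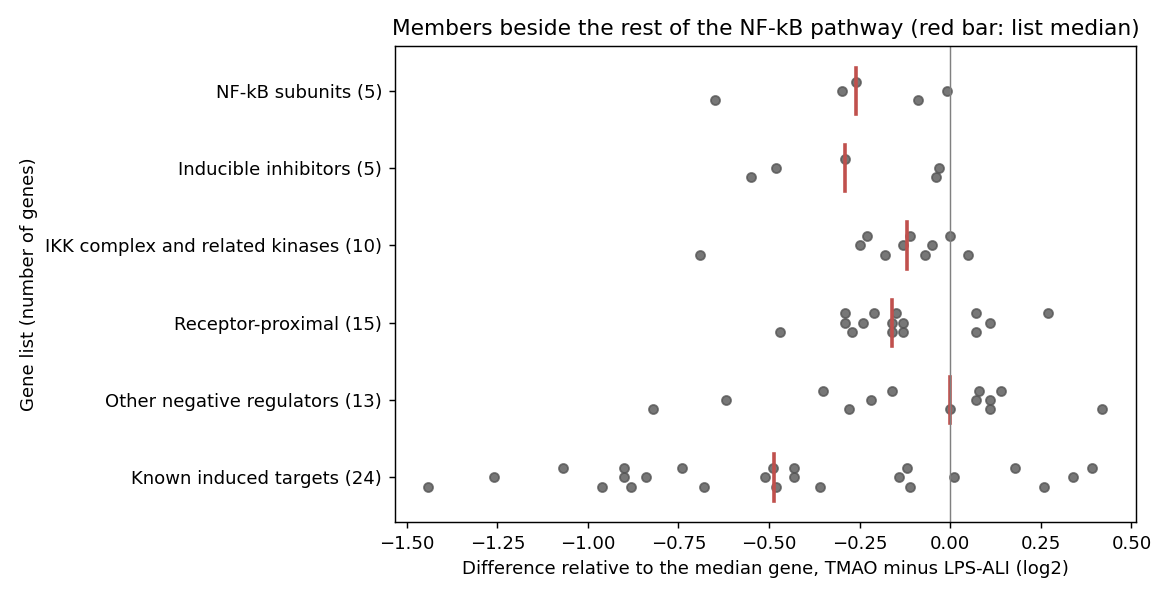
Relative log2 difference, TMAO minus LPS-ALI, of every tested gene of the subunits, the inhibitors and 4 lists of the surrounding pathway, with 1 point per gene and the list median as a red bar. The medians are -0.26, -0.29, -0.12, -0.16, 0.00 and -0.48 from top to bottom.

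By the likeness of their profiles over the 9 libraries, in log2(FPKM + 1), the genes nearest to Nfkbia were Tmem214, Ruvbl2 and Zfp518a, with Pearson r of 0.997, 0.994 and 0.993. Nearest to Rela were Clns1a, Ddx27 and Map3k7, with r of 0.994, 0.993 and 0.993. Without TMAO replicate 5 these values were 0.970 to 0.987 over 8 libraries. They are descriptions of points that share library depth and scaling, chosen as the highest of all genes tested. None of the induced targets above was among them, and Map3k7, which encodes the kinase that activates IKK, is on the kinase list.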

How the data were processed

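Per the labels, RNA of lung tissue was ribosome-depleted and sequenced, although the protocol wording names platelets. The deposited FPKM values were made by the authors, 1 column per library and rounded to 2 decimals. Tools named in the submitters' processing notes are fastp, HISAT2, SAMtools and featureCounts, without versions, and the build is mm10. The sources used here do not give the annotation or the strand setting. Coordinates and exon overlaps come from GENCODE M21 on GRCm38, the same assembly, in which 52125 of 52381 identifiers were found.

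Groups came from the sample titles. The 11817 genes with 1 FPKM or more in 4 or more libraries were tested as log2(FPKM + 1), TMAO minus LPS-ALI, with limma 3.58.1 in R 4.3.3 (mean-variance trend, two-sided, Benjamini-Hochberg over all genes, threshold 0.05). No count model was used. Exact permutation tests were two-sided and unadjusted. With all 9 libraries they ran over 126 assignments of libraries to groups, with a smallest p of 0.00794. With libraries left out there are fewer assignments, so the smallest p is larger and the values are not at the same resolution. Relative values subtract each library's median tested gene. The limma script was tested on simulated data with independent genes and no shift shared within a library. That test does not cover the differences between libraries described above. The members and lists were chosen with earlier results of these data known. All 10 members are named, and from each pathway list the 3 tested genes with the smallest unadjusted p. For Nfkbia and Rela, the 3 tested genes of highest Pearson r outside the 10 members are named. Tnf and Il1b were named after their values were seen. Cell type markers are summed FPKM of lists for 9 cell types. For T and NK cells and platelets, mean log2(FPKM + 1) minus the library's median gene is also given. Depth in reads is unknown, so no counting intervals are given. Alternatives covered pseudocount, filter, scaling, variance model, a replicate block and left-out libraries. Figures used Python 3.11.15 and matplotlib 3.10.9.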

Additional observations from a re-analysis of the deposited data

Results flagged for a closer look

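Checks covered 28 measures (10 genes on 2 scales, contrasts and ratios) in each group, 56 in all. TMAO replicate 5 stood apart from the other TMAO lungs in 5 of the 28. LPS-ALI replicate 4 stood apart from the other LPS-ALI lungs in 1 of the 28. Each is listed because the gap to the nearest lung of its group filled more of the group's range than Dixon's 95% limit allows, which chance alone does in about 1 of 20 groups, and the measures share genes.

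In TMAO replicate 5 the inhibitors exceeded the subunits by 1.23 log2 units, against 0.49 to 0.60 in the other TMAO lungs. Without Bcl3 the excess was 0.85, against 0.32 to 0.45. Bcl3 exceeded the subunit mean by 2.77, against 1.15 to 1.24, and the ratio of Bcl3 to Rela FPKM was 4.12, against 0.971 to 1.31. The ratio of Nfkbia to Rela FPKM was 8.81, against 4.79 to 5.94. This library also had the lowest relative depth, 0.381, and the largest mitochondrial share, 52.2%, and the part of these in the values was not tested. In LPS-ALI replicate 4 Tnfaip3 had 25.95 FPKM, against 13.77 to 15.59 in the other LPS-ALI lungs.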

How the results depend on the processing

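No member passed an adjusted p of 0.05 by limma under any of the 249 combinations of member and alternative. The lowest adjusted p by limma was 0.273, for Bcl3 with library weights, where its unshifted difference was -0.46. Of the 249 combinations, 232 kept their unshifted direction. Nfkb2, Nfkbia, Nfkbiz and Tnfaip3 kept theirs under every alternative run. The count of genes past the threshold, 0, became 51 (16 higher, 35 lower) with library weights and 0 to 3 with each library left out (1 without LPS-ALI replicate 3, 3 without TMAO replicate 4). The cause was not tested. Unshifted differences turned positive as follows. With library weights Nfkb1 was at 0.08 and Nfkbie at 0.3. Without LPS-ALI replicate 4 and TMAO replicate 5, Nfkb1 was at 0.18, Rela 0.17, Relb 0.11, Rel 0.02 and Nfkbie 0.33. Without the X-coded libraries Nfkbie was at 0.03. Bcl3 was at 0.02 under median-of-ratios and 0.01 under quantile scaling, but at -0.57 without the X-coded libraries. With each library left out in turn, Nfkb1 ranged from -0.45 to 0.13, Nfkbie from -0.36 to 0.11, Rela from -0.7 to -0.01, Relb from -0.67 to -0.03 and Rel from -0.29 to -0.04. On the relative scale without TMAO replicate 5, an alternative chosen after seeing the data, Nfkb1 was at 0.06 and Nfkbie at 0.03. Under median-of-ratios scaling, 359 genes were higher and 434 lower at an unadjusted p under 0.05. The difference in inhibitors minus subunits ranged from -0.18 to 0.03 over its alternatives. The mouse number as a replicate block uses mice 1 to 4 of each group and so drops TMAO replicate 5. Under it Nfkb1 was at 0.13 and Nfkbie at 0.11, no other member changed direction and 0 genes passed. At an unadjusted limma p under 0.05, 374 genes were higher and 370 lower under the block. The fit over all 9 libraries without the block gave 50 and 346, which differs in the library dropped as well as in the block. Leaving out TMAO replicate 5 without a block gave the same values for Nfkb1 and Nfkbie. More genes were higher than lower at that p there too, so the rise from 50 was present without the block. Deviations of same-numbered mice from their group means had correlations of -0.134 to 0.064. These cannot decide whether the numbers pair the mice, since the TMAO mean includes TMAO replicate 5. At a mean FPKM of at least 5 Rel was not tested, and that filter gave no value for inhibitors minus subunits. The intervals limit what 9 libraries can show: a relative difference lower than -0.55 for Nfkb1, or lower than -0.71 for Nfkbia, lay outside them.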
